A study of Mus musculus with 94 samples.

Results

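Whole-tumor RNA sequencing of 4T1 tumors treated with indomethacin (INDO) was compared with that of untreated control tumors harvested on day 7 of treatment. Each group held 5 tumors, so that 10 of the 94 tumors of the time course entered the comparison, and the tumors were taken by their labels (treatment and day), with no use of a measured value. 4T1 is a BALB/c mammary carcinoma line used as a model of triple-negative breast cancer (TNBC), and the cells were implanted under the skin of the right hind limb of female BALB/c mice at 8 weeks of age. Both groups therefore carried the same tumor in hosts of the same strain, sex and age, and differed in the drinking water, which held INDO at 30 mg/L throughout for the treated mice and no drug for the controls. Treatment began once the tumors had grown to a set size. The other groups of day 7 were given 6 Gy of x-rays to the tumor once, with or without INDO, and they entered the fit so that all 20 tumors of the day shared an estimate of the spread. A tumor of this kind is a mixture of carcinoma cells and host tissue, and each library is the sum of both: fewer cells of a type and less RNA per cell cannot be told apart.

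Indomethacin is a nonsteroidal antiinflammatory drug that blocks the catalytic site of both cyclooxygenases, COX1 (Ptgs1) and COX2 (Ptgs2), which turn arachidonic acid into the precursor of all prostaglandins. Prostaglandin E2, the main product in many tumors, signals through the receptors EP1 to EP4 (Ptger1 to Ptger4), raises cAMP in most of the cells that carry EP2 or EP4, supports new blood vessels and fibroblasts, and dampens T cell and natural killer cell responses. Arachidonic acid that is not used by the cyclooxygenases can be turned into leukotrienes and other lipids by the lipoxygenases. The drug acts on enzyme activity, so that the RNA of its target genes is no check of the labels.

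The tumors yielded 47525897 to 96476247 counts (median 87309377) in the control group and 34481779 to 70782192 counts (median 50979373) in the INDO group. All 20 genes of a list of epithelial tumor markers were measured in both groups, with summed levels of 2813 to 4624 CPM in control and 2614 to 3566 in INDO tumors, and all but the basal keratin Krt5 were above 0 in each of the 10 tumors. Among the lists of neighboring tissue, the 20 skeletal muscle genes summed to 34.5 to 11202 CPM in control and 64.7 to 15026 in INDO tumors and 22 skin and hair genes, of which 17 were tested, summed to 6.61 to 139 CPM in control and 10.7 to 166 in INDO tumors, so the muscle and skin around a tumor varied widely within both groups, and no member of either list was called. The median sums were higher with INDO, at 1378 CPM in control and 7487 in INDO tumors for muscle. For skin and hair they were 10.3 and 45.8 CPM in that order. A gene was called when its adjusted p (edgeR quasi-likelihood F test, Benjamini-Hochberg over all genes tested) was under 0.05, and levels are given as counts per 1000000 counts (CPM) on library sizes scaled by the trimmed mean of M values (TMM), while levels summed over a list, as above, are without that scaling. Summed in this way, 14 housekeeping genes also were lower with INDO without overlap, at 12214 to 14304 CPM in control and 7169 to 11253 in INDO tumors. A lower sum alone therefore does not set a list apart.

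The groups differed in the makeup of the counts, in that libraries of INDO tumors held a larger share of ribosomal, mitochondrial and small structural RNA. Mitochondrial RNA, all 37 genes of the mitochondrial genome together, took 4.14, 2.62, 3.29, 4.83 and 3.33% of the counts of control tumors 1 to 5. In INDO tumors 1 to 5 it took 5.68, 14.0, 10.3, 8.32 and 5.49%. The lowest INDO tumor lay above the highest control tumor, with group means of 3.64 ± 0.853% (SD, n = 5) and 8.74 ± 3.53% (SD, n = 5, exact permutation test, two-sided, p = 0.00794, adjusted p = 0.0119 over 12 classes of RNA). A p of 0.00794 is the smallest that 5 against 5 tumors can give.

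Most of this difference lay in the ribosomal RNA of the mitochondrion rather than in its messages. The 2 mitochondrial rRNA genes rose from 2.28 ± 0.798% to 6.96 ± 3.49% of the counts and the 13 mitochondrial mRNAs from 1.37 ± 0.125% to 1.78 ± 0.194% (SD, n = 5 each, exact permutation test, p = 0.00794 and adjusted p = 0.0119 for both classes), with no overlap of the groups in either class. INDO tumors 2 and 3 were highest for the rRNA, at 12.3 and 8.28%. The 22 mitochondrial tRNA genes took at most 6.09e-05% of the counts in any tumor of both groups, and their share did not pass the test (exact permutation p = 0.389).

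Structural RNA of the nucleus and cytoplasm followed the same order. The 1949 genes of this class (7SL, 7SK, small nuclear, small nucleolar and nuclear ribosomal RNA among them) took 8.76 ± 2.21% of the counts in control tumors and 20.6 ± 4.68% in INDO tumors (SD, n = 5 each, exact permutation test, p = 0.00794, adjusted p = 0.0119). Nuclear ribosomal RNA supplied part of this difference. Without it, a calculation added after seeing the data, the class took 8.57 ± 2.08% in control and 15.5 ± 2.40% in INDO tumors, still without overlap (SD, n = 5 each, exact permutation p = 0.00794), and the difference was 6.93 instead of 11.9 percentage points. The largest component of the class, the 7SL RNA of the signal recognition particle together with the transcription regulator 7SK, took 9.22, 5.59, 6.59, 9.34 and 5.69% in control tumors 1 to 5. The INDO tumors held 13.8, 12.4, 16.0, 13.5 and 10.9%, all above the highest control tumor. The small nuclear RNAs, which build the spliceosome, also rose, from 0.493 ± 0.103% to 0.838 ± 0.206%, without overlap (exact permutation p = 0.00794, adjusted p = 0.0119). The snoRNAs and scaRNAs, which guide modification of other RNAs, averaged 0.288 ± 0.0256% and 0.449 ± 0.164% and overlapped (exact permutation p = 0.0476, adjusted p = 0.0635). The irradiated groups of day 7 were not tested for shares. Their structural RNA took 13.5 ± 4.53% with 6 Gy alone and 14.3 ± 6.46% with 6 Gy + INDO (SD, n = 5 each). Small nuclear RNAs took 0.812 ± 0.433% and 0.6685 ± 0.235%, and mitochondrial RNA 3.58 ± 1.23% and 5.73 ± 2.36%, in that order. A structural share above the control mean was thus also seen with 6 Gy alone.

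Nuclear ribosomal RNA, which the library kit is meant to remove, took 0.0556 to 0.399% of the counts in control tumors and 5.16, 12.7, 3.47, 1.71 and 2.52% in INDO tumors 1 to 5. Because the level of this RNA depends on how well it was removed from each library, the share of this class by itself was described and not tested. The class did enter the test of all structural RNA above, and its genes entered the test of single genes. The part of rRNA removal and of the smaller libraries of the INDO group in the other shares was not tested. Mitochondrial rRNA is among those shares, and INDO tumor 2 was highest for both nuclear (12.7%) and mitochondrial rRNA (12.3%). In the opposite direction, hemoglobin mRNA fell from 0.0108 ± 0.00359% to 0.00265 ± 0.00106% and immunoglobulin mRNA from 0.00113 ± 0.000652% to 0.000270 ± 0.000104%, neither with overlap (exact permutation p = 0.00794, adjusted p = 0.0119 for both). Ribosomal protein mRNA averaged 4.98 ± 0.751% and 3.90 ± 0.778% (adjusted p = 0.0762 in the exact permutation test), and histone mRNA did not pass the test (exact permutation p = 0.746).

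**Figure D1:**
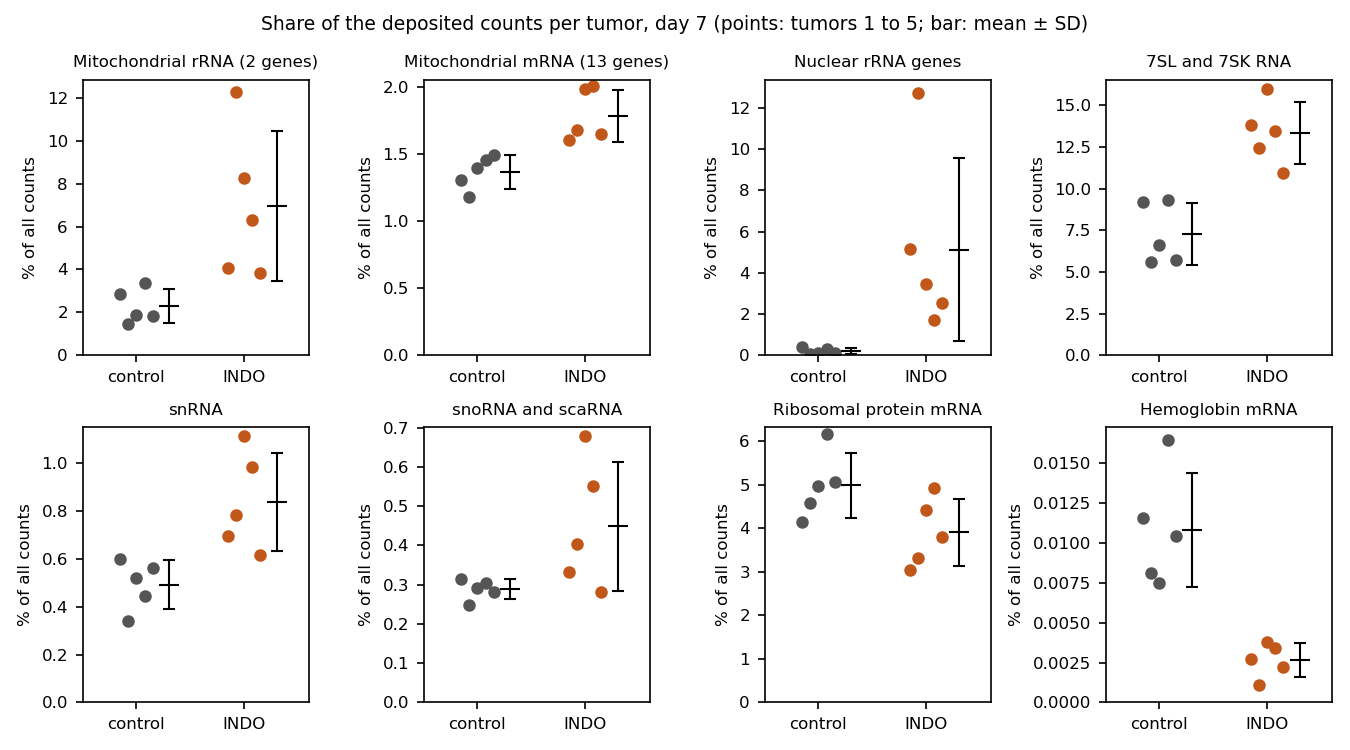
Share of the deposited counts (y axis, percent of all counts of a tumor) taken by 8 classes of RNA in the 5 control and 5 INDO tumors of day 7. Points are tumors 1 to 5 from left to right and bars are mean ± SD. The INDO tumors lie above all control tumors for mitochondrial rRNA and mRNA, nuclear rRNA, 7SL and 7SK RNA and snRNA, and below all control tumors for hemoglobin mRNA.

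Within the mitochondrial genome, the genes differed in how far they moved. Of the 13 mRNAs, 11 were called higher with INDO, and the largest change was that of mt-Nd4l, which encodes a small core subunit of complex I. Its level was 7.72, 9.48, 8.39, 11.3 and 9.13 CPM in control tumors 1 to 5 and 22.1, 71.98, 51.99, 43.6 and 18.6 CPM in INDO tumors 1 to 5. The groups did not overlap (log2 fold change 2.18 ± 0.35 (SE), adjusted p = 0.000991). mt-Nd6, the only mRNA read from the light strand, had 21.4, 44.1, 29.7, 42.7 and 45.6 CPM in control tumors and 57.4, 284, 172, 135 and 46.4 CPM in INDO tumors (log2 fold change 1.92 ± 0.43 (SE), adjusted p = 0.00576). INDO tumor 5 lay just above the highest control tumor for this gene, whereas INDO tumor 2 was several times higher.

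Complex I messages made up most of the upper end of the list. mt-Nd2 (1.48, adjusted p = 0.00131), mt-Nd5 (1.42, adjusted p = 0.0066) and mt-Nd4 (1.19, adjusted p = 0.00878) rose further than mt-Nd1 (0.85, adjusted p = 0.00337) and mt-Cytb, the cytochrome b of complex III (0.89, adjusted p = 0.00954), all as log2 fold changes. The call of mt-Nd3 (0.97, adjusted p = 0.0184) was lost without INDO tumor 2 or 3, at an adjusted p of 0.0514 and 0.0598. The 3 subunits of cytochrome c oxidase, complex IV, lay at the lower end: mt-Co2 rose by 0.77 (adjusted p = 0.008), while mt-Co1 at 0.46 (adjusted p = 0.0736) and mt-Co3 at 0.22 (adjusted p = 0.305) did not pass. With the libraries scaled on 14 housekeeping genes in place of TMM, mt-Co1 and mt-Co3 passed as well, at adjusted p = 0.0219 and 0.0323, and mt-Co1 also passed in the fit of the 10 compared tumors alone (0.0487) and with DESeq2 (0.0472). The small rRNA mt-Rnr1 rose by 2.56 ± 0.63 and the large rRNA mt-Rnr2 by 1.77 ± 0.45 on the log2 scale (SE, adjusted p = 0.0088 and 0.0106).

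Nuclear genes that supply the mitochondrion did not follow the mitochondrial messages upward. Of 30 nuclear genes of the respiratory chain, none was called higher and 6 were called lower, and of 20 genes of the TCA cycle and fatty acid oxidation none was higher and 11 were lower, against 12.7% of all genes tested called higher and 11.7% called lower. The median log2 fold changes of the 2 lists were -0.21 and -0.28, beside 0.018 over all genes tested. Both counts depended on the scaling and on single tumors. With housekeeping scaling, which called 911 of all genes tested lower and 3586 higher, 1 respiratory gene was lower and 1 higher. In that fit 2 TCA and fatty acid genes were lower. Sdha, a member of both lists, is one of the scaling genes. The respiratory count was 3 without INDO tumor 1, 2 or 3 and 2 without control tumor 4, and the other count was 6 without INDO tumor 1, 2, 3 or 4 or control tumor 4 and 7 without control tumor 5. Among those called in each of these fits were Fh1, the fumarase of the TCA cycle, at 72.9 ± 19.8 CPM in control and 42.8 ± 4.34 CPM in INDO tumors (SD, n = 5 each, log2 fold change -0.77 ± 0.18 (SE), adjusted p = 0.0072), and Hadhb, a subunit of the enzyme of long-chain fatty acid oxidation, at 70.7 ± 12.6 CPM in control and 46.5 ± 3.43 CPM in INDO tumors (log2 fold change -0.61 ± 0.13 (SE), adjusted p = 0.00428). Both were also called with housekeeping scaling, at adjusted p = 0.00565 and 0.00647. Of 20 genes for mitochondrial RNA synthesis and handling, 1 was called higher and 4 lower, and none of these calls held in every fit that left out a tumor (lower calls from 0 (without INDO tumor 2) to 4 (without INDO tumor 5 or control tumor 1)). With housekeeping scaling 2 were higher and none was lower.

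Among single structural RNA genes, CT010467.1, a nuclear rRNA gene (chr17:39846353-39848827, minus strand, GRCm38), had 3623, 512, 827, 3078 and 1061 CPM in control tumors 1 to 5. INDO tumors 1 to 5 held 52918, 168646, 42118, 18722 and 24316 CPM (log2 fold change 5.08 ± 0.83 (SE), adjusted p = 0.00101). INDO tumor 2 stood far above the other INDO tumors. The level of this gene depends on rRNA removal as that of its class does, and the part of removal was not tested. Gm24871, an snRNA gene on chr1, rose further, with 0.592 ± 0.294 CPM in control and 57.2 ± 62.98 CPM in INDO tumors (log2 fold change 6.63 ± 1.07 (SE), adjusted p = 0.000991). Rn7s1 and Rn7s2, chosen after their values were seen as the near-identical copies of the 7SL RNA gene whose reads cannot be split with certainty, both rose by 1.54 on the log2 scale (adjusted p = 0.0105 and 0.0104).

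Across the transcriptome, 2769 genes (12.7% of 21875 tested) were higher and 2557 (11.7%) were lower with INDO, 24.3% in all. Counts of called list members given below for this fit stand beside these shares. Other fits called other numbers of genes, so their list counts do not stand beside these shares. The direction of the calls depended on the scaling: 52.0% of the called genes were higher with TMM and 79.7% with housekeeping scaling, which gave 3586 higher and 911 lower genes and moved the median over all genes tested from 0.018 to 0.213 on the log2 scale. Of the 14 housekeeping genes themselves, 3 were called lower with TMM and 11 had a log2 fold change below 0. Sdha, Gapdh, Pgk1, B2m and Tfrc among them are also members of other lists. A lower call lost with this scaling is therefore not independent of the change in the scaling genes. All of those 911 genes and 2762 of the 2769 higher genes were called in the same direction with both scalings. Leaving out control tumor 4 or 5 left 1719 or 1673 genes higher, and leaving out INDO tumor 2 or 3 left 1547 or 1658 lower. In each of the 10 fits that left out 1 tumor, 1387 higher and 1205 lower genes were called. The groups did not overlap in 1312 of the higher and 1658 of the lower genes (16.0% of all genes tested had groups that did not overlap). Changes of at least 2-fold were seen in 1482 higher and 650 lower genes, and of at least 4-fold in 161 and 171.

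The higher and lower genes were of different kinds. Protein-coding genes made up 96.3% of the lower and 31.3% of the higher genes: of 15462 tested, 867 (5.61%) rose and 2461 (15.9%) fell. Among 1581 genes of the annotation class TEC, which are unspliced transcribed stretches with no settled gene model, 661 (41.8%) rose and 5 fell. Antisense genes rose in 343 of 1121 cases (30.6%), processed pseudogenes in 274 of 1165 (23.5%) and long intergenic noncoding RNAs (lincRNAs) in 175 of 788 (22.2%). With housekeeping scaling the TEC class had 713 higher and 0 lower genes and the protein-coding class 1415 and 874, so the excess of lower over higher protein-coding genes was lost with that scaling and the excess of higher TEC genes was not. The library kit keeps the strand, but the sources used here do not give whether the counting used it, so reads of an antisense gene and of its partner may not be separated, and pseudogenes may share reads with the genes they were copied from. The protein-coding genes that rose had a median span of 25.8 kb, those that fell of 24.2 kb and all tested of 23.3 kb.

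**Figure D2:**
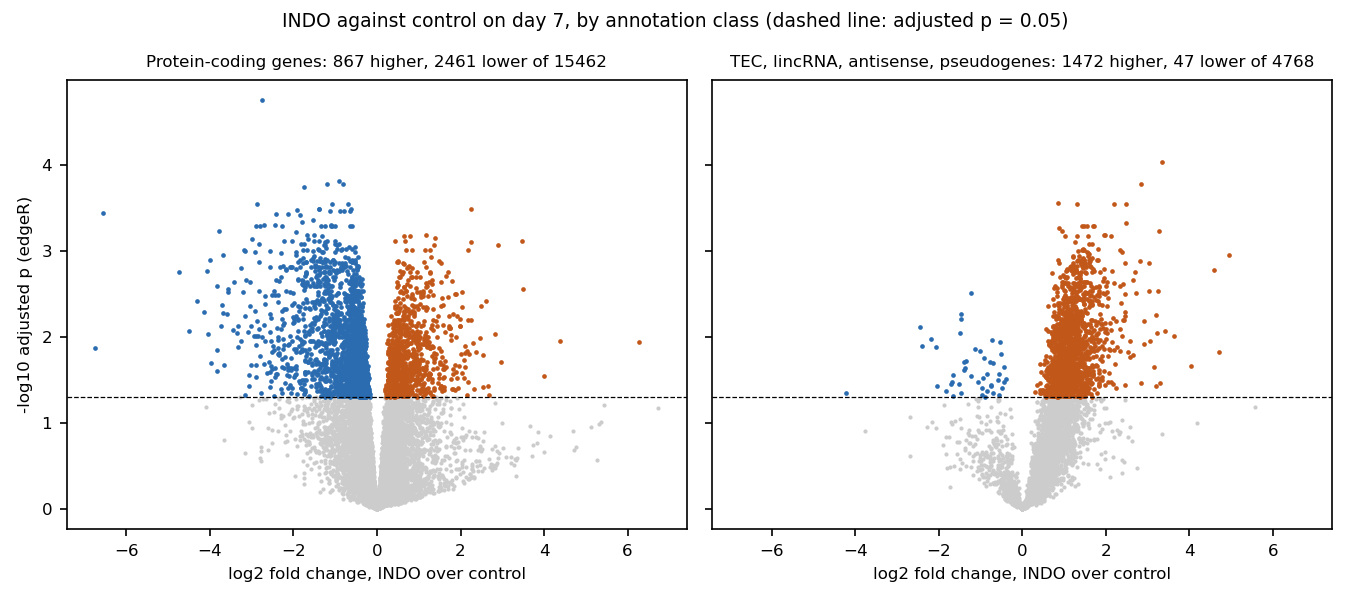
Log2 fold change of INDO over control (x axis) against -log10 of the adjusted p of edgeR (y axis) for protein-coding genes (left) and for TEC, lincRNA, antisense and pseudogenes (right), with colored points for called genes. Protein-coding genes lie mostly to the left among the called (867 higher, 2461 lower), while nearly all called genes of the other classes lie to the right.

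The cyclooxygenase genes themselves did not pass the test after a week of INDO. The target Ptgs2 had 199, 96.4, 188, 159 and 171 CPM in control tumors 1 to 5 and 138, 169, 220.1, 172 and 229.5 CPM in INDO tumors (log2 fold change 0.19 ± 0.26 (SE), adjusted p = 0.609), with wide overlap. Ptgs1 had 37.6 ± 9.27 CPM in control and 53.2 ± 13.9 CPM in INDO tumors (SD, n = 5 each, log2 fold change 0.50 ± 0.21 (SE), adjusted p = 0.0809), with control tumor 2 apart from the other controls at 53.3 CPM, and passed with housekeeping scaling (adjusted p = 0.0329) and without INDO tumor 2 or control tumor 2 (0.0314 and 0.0382). The main prostaglandin E synthase of inflammation, Ptges, had 37.01 ± 6.14 CPM in control and 30.2 ± 3.79 CPM in INDO tumors (log2 fold change -0.29 ± 0.14 (SE), adjusted p = 0.139). Of the 13 genes of the synthesis list, none was called higher (1 without INDO tumor 2 or control tumor 2) and 2 were called lower, beside 12.7 and 11.7% of all genes tested, or 1 and 1 with housekeeping scaling. Of the lower genes, Akr1b3, an aldose reductase that also makes prostaglandin F2 alpha, was called in every fit that left out a tumor. Its level was 55.3, 57.4, 51.3, 61.8 and 65.3 CPM in control tumors 1 to 5 and 40.5, 31.96, 32.3, 40.9 and 45.4 CPM in INDO tumors, without overlap (log2 fold change -0.61 ± 0.13 (SE), adjusted p = 0.00507). The call of the other, the prostacyclin synthase Ptgis (-1.18, adjusted p = 0.0458), was lost in 8 of the 10 fits that left out a tumor.

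Receptors and breakdown enzymes showed a few lower genes. Ptgfr, the receptor of prostaglandin F2 alpha, had 7.77, 2.14, 3.499, 2.11 and 3.35 CPM in control tumors and 0.476, 0.962, 0.120, 0.868 and 0.450 CPM in INDO tumors (log2 fold change -2.71 ± 0.64 (SE), adjusted p = 0.00733), with control tumor 1 well above the others and no overlap. Hpgd, the enzyme that starts the breakdown of prostaglandins, had 4.83, 2.45, 5.28, 2.73 and 4.32 CPM in control tumors and 0.0595, 0.572, 0.120, 0.930 and 0.900 CPM in INDO tumors (log2 fold change -2.90 ± 0.85 (SE), adjusted p = 0.0215), and its adjusted p was 0.0511 without INDO tumor 3. The importer Slco2a1 (0.48, adjusted p = 0.107) and the receptors Ptger1 (0.50, adjusted p = 0.099), Ptger2 (0.15, adjusted p = 0.674), Ptger3 (-1.92, adjusted p = 0.0693) and Ptger4 (-0.34, adjusted p = 0.292) did not pass, given as log2 fold changes. Ptger1 passed without control tumor 1 (adjusted p = 0.0437), and Ptger3 passed in the fit of the 10 compared tumors alone (0.0364) and with DESeq2 (0.0328). In all, 4 of the 14 tested genes of receptors, transport and breakdown were lower and none was higher (1 without control tumor 1), or 2 without INDO tumor 1 or 3 and 2 with housekeeping scaling. With all 20 tumors and TMM, the share of all genes tested was 11.7% lower and 12.7% higher.

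Of 17 tested genes of phospholipases and leukotrienes, 5 were lower in every fit that left out a tumor and none was higher, with a median log2 fold change of -0.31. Alox5ap, the protein that presents arachidonic acid to 5-lipoxygenase, had 28.1, 18.3, 30.1, 19.1 and 36.7 CPM in control tumors and 9.35, 15.4, 13.7, 17.1 and 11.8 CPM in INDO tumors, without overlap (log2 fold change -0.97 ± 0.20 (SE), adjusted p = 0.00325). Alox5, the 5-lipoxygenase itself (-1.21, adjusted p = 0.00974), Alox15, the 12/15-lipoxygenase (-2.39, adjusted p = 0.00797), Pla2g7, which breaks down platelet-activating factor (-0.61, adjusted p = 0.00279), and Lta4h, which makes leukotriene B4 (-0.41, adjusted p = 0.00235), fell as well, and Lta4h did not pass with housekeeping scaling (adjusted p = 0.0706). These genes are mostly those of myeloid and mast cells. The macrophage list, in which 1 of 23 tested members was higher and 2 were lower (1 without INDO tumor 3 or control tumor 5, 4 without INDO tumor 4), summed to 4055 to 5749 CPM in control and 2207 to 5324 in INDO tumors. The 12 mast cell genes had a median log2 fold change of -1.30, with 10 below 0 and 2 called lower (6 in the fit of the 10 compared tumors alone, 1 with housekeeping scaling), and summed to 43.2 to 153 CPM in control and 37.8 to 85.05 in INDO tumors. Of 20 tested neutrophil genes 18 were below 0 and 2 were called lower (median -0.49, sum 1141 to 1832 CPM in control and 1081 to 1305 in INDO tumors). Of 17 dendritic cell genes 14 were below 0 and 5 were called lower (median -0.31, sum 530.5 to 779.6 CPM in control and 464 to 658 in INDO tumors). The counts of this paragraph with all 20 tumors and TMM stand beside 11.7% of all genes tested called lower and 12.7% called higher. Housekeeping scaling called 911 genes lower and 3586 higher. The part of cell numbers in the lipoxygenase result was not tested.

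Of 20 genes that respond to cAMP, the second messenger of EP2 and EP4, 1 was higher and 4 were lower, and 2 were lower without INDO tumor 1, 3 or 5 or control tumor 1 or 3. With housekeeping scaling 2 were higher and 1 was lower. Over all genes tested with TMM, 12.7% were higher and 11.7% lower. The members called lower in every such fit were Crem, a transcription factor of the cAMP pathway, at 11.2 ± 1.46 CPM in control and 7.82 ± 0.526 CPM in INDO tumors (SD, n = 5 each, log2 fold change -0.51 ± 0.13 (SE), adjusted p = 0.0105), and Rgs2, a brake on G protein signaling, at 19.2 ± 4.36 CPM in control and 11.5 ± 1.61 CPM in INDO tumors (log2 fold change -0.75 ± 0.19 (SE), adjusted p = 0.0102). Crem did not pass with housekeeping scaling (adjusted p = 0.0724), and Rgs2 did (0.037).

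Genes of connective tissue fell. Of 20 markers of fibroblasts and pericytes, 14 were lower with INDO and none was higher, 11 of them in every fit that left out a tumor, and 11 were lower with housekeeping scaling. The median log2 fold change of the list was -1.28, and its summed level was 12190.0 to 25557 CPM in control and 7407 to 11382 in INDO tumors, without overlap. The summed housekeeping genes did not overlap either. Pi16, a peptidase inhibitor that marks a fibroblast population found in most tissues (chr17:29317680-29330593, plus strand), had the smallest p of all genes. Control tumors 1 to 5 held 68.3, 40.3, 68.5, 37.6 and 30.1 CPM and INDO tumors 1 to 5 held 6.52, 9.04, 7.46, 9.17 and 3.87 CPM. The lowest control tumor was more than 3 times the highest INDO tumor (6.78-fold lower in the fit, log2 fold change -2.76 ± 0.25 (SE), adjusted p = 1.80e-05).

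Small proteoglycans and matrix proteins of the same tissue fell as well. Lum, the collagen-binding lumican, had 62.5, 42.5, 43.6, 45.2 and 28.9 CPM in control tumors and 3.15, 8.52, 1.57, 6.14 and 5.27 CPM in INDO tumors (log2 fold change -3.17 ± 0.51 (SE), adjusted p = 0.000991). Dcn, decorin, had 276, 130.2, 224, 114 and 165 CPM in control tumors and 11.6, 32.9, 4.41, 38.9 and 37.2 CPM in INDO tumors (log2 fold change -2.86 ± 0.66 (SE), adjusted p = 0.00659). In both genes INDO tumor 3 was the lowest of all 10 tumors and the groups did not overlap. Sfrp2, a secreted modulator of Wnt signaling, fell further, with 61.3, 121, 54.8, 26.2 and 61.2 CPM in control tumors and 1.46, 3.72, 0.0798, 7.39 and 3.57 CPM in INDO tumors (log2 fold change -4.31 ± 0.90 (SE), adjusted p = 0.00384). Dpt (-3.70, adjusted p = 0.00424), Fmod (-3.14, adjusted p = 0.00222), Aspn (-2.92, adjusted p = 0.00103), Ogn (-2.82, adjusted p = 0.00136) and Prelp (-2.89, adjusted p = 0.00978), all proteins of the collagen matrix, fell by a similar amount on the log2 scale. Rgs5, a marker of pericytes that wrap small vessels, had 104, 154, 92.3, 116 and 115 CPM in control tumors and 17.7, 18.4, 7.96, 37.7 and 25.8 CPM in INDO tumors, again without overlap and with INDO tumor 3 lowest (log2 fold change -2.43 ± 0.34 (SE), adjusted p = 0.000504).

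**Figure D3:**
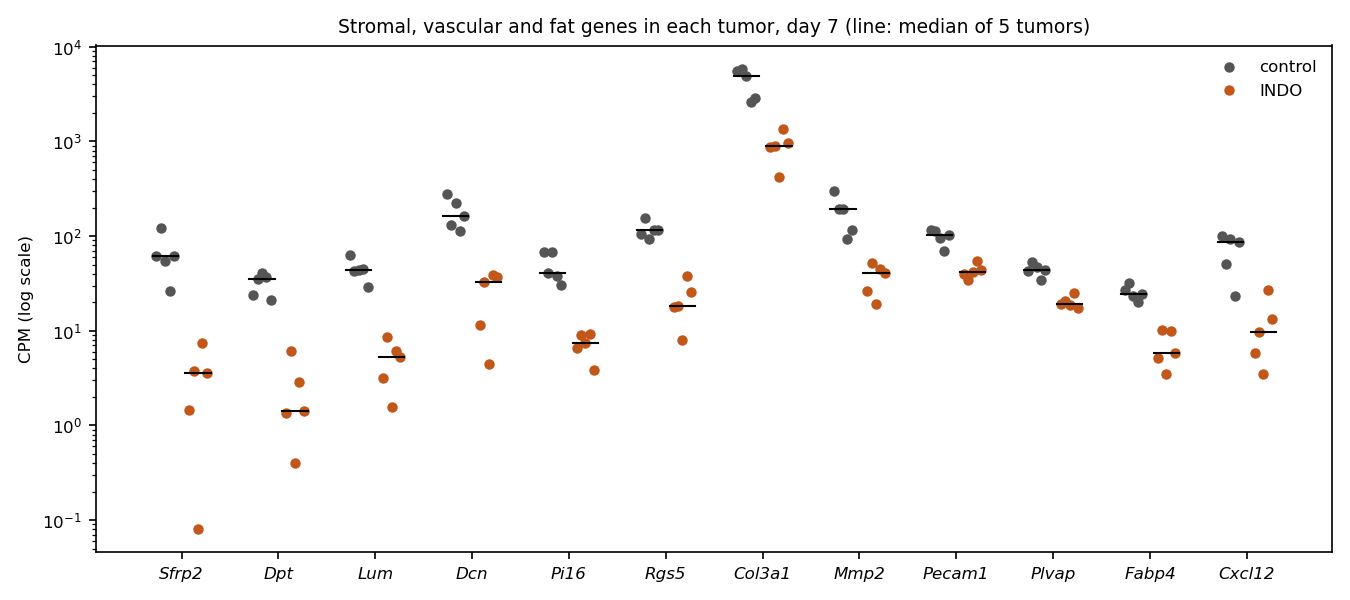
Level (y axis, CPM, log scale) of 12 genes of fibroblasts, matrix, vessels and fat in each control (gray) and INDO (orange) tumor of day 7, with a line at the median of the 5 tumors. All INDO tumors lie below all control tumors for each gene but Cxcl12, in which INDO tumor 4 lies above control tumor 4.

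Collagen genes showed 10 of 20 members lower and 1 higher with INDO (7 and 1 in every fit that left out a tumor, 5 and 1 with housekeeping scaling). Col3a1, a fibrillar collagen and the most abundant of those named, had 5516, 5881, 4904, 2637 and 2854 CPM in control tumors 1 to 5 and 867, 885, 425, 1340.0 and 958 CPM in INDO tumors 1 to 5 (log2 fold change -2.28 ± 0.38 (SE), adjusted p = 0.00106). Col1a2 (-1.29, adjusted p = 0.00369), Col12a1 (-1.23, adjusted p = 0.00498) and Col14a1 (-2.21, adjusted p = 0.00478) fell too, and the collagen chaperone Serpinh1 fell from 441 ± 101 CPM in control to 209.8 ± 27.6 CPM in INDO tumors (SD, n = 5 each, log2 fold change -1.07 ± 0.14 (SE), adjusted p = 0.000285). The exception was Col7a1, the anchoring fibril collagen of epithelial basement membranes, which had 429, 446, 432, 315 and 422 CPM in control tumors and 696, 958, 778, 729 and 635 CPM in INDO tumors and rose without overlap (log2 fold change 0.89 ± 0.20 (SE), adjusted p = 0.00576). Control tumor 4 was the lowest control for this gene, apart from the other 4.

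Of 20 matrix proteases and inhibitors, 6 were lower and none was higher, 4 of them in every fit that left out a tumor and 3 with housekeeping scaling. Mmp2, the gelatinase of fibroblasts, had 301, 195, 192, 92.4 and 117 CPM in control tumors and 26.1, 52.4, 19.3, 44.6 and 41.1 CPM in INDO tumors, without overlap (log2 fold change -2.29 ± 0.43 (SE), adjusted p = 0.00203). Adamts5, which cuts aggrecan and versican, fell from 31.1 ± 8.58 CPM in control to 5.72 ± 2.73 CPM in INDO tumors (SD, n = 5 each, log2 fold change -2.44 ± 0.50 (SE), adjusted p = 0.00332), with control tumor 3 apart from the other controls at 45.9 CPM. Mmp3, stromelysin 1, had 428, 267, 496, 778 and 389.8 CPM in control tumors and 201, 406, 189, 169.8 and 216 CPM in INDO tumors, of which INDO tumor 2 stood apart and overlapped the controls (log2 fold change -0.998 ± 0.28 (SE), adjusted p = 0.0173). Its call was lost without control tumor 4 (adjusted p = 0.0616) and with housekeeping scaling (adjusted p = 0.0708).

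Genes of blood vessels fell too. Of 20 endothelial markers, 15 were lower and none was higher, 11 in every fit that left out a tumor and 12 with housekeeping scaling, with a median log2 fold change of -1.29 and summed levels of 432 to 857 CPM in control and 237 to 364 in INDO tumors. Pecam1, the CD31 adhesion molecule of all endothelium, had 116, 114, 94.8, 68.98 and 104 CPM in control tumors 1 to 5 and 40.2, 34.6, 42.1, 54.7 and 43.3 CPM in INDO tumors 1 to 5, without overlap (log2 fold change -1.21 ± 0.19 (SE), adjusted p = 0.000933). Plvap, which forms the diaphragms of fenestrated vessels, had 42.3, 52.96, 46.97, 34.1 and 43.9 CPM in control tumors and 19.2, 20.8, 18.7, 25.2 and 17.5 CPM in INDO tumors, without overlap (log2 fold change -1.12 ± 0.15 (SE), adjusted p = 0.000348). Tek, the angiopoietin receptor TIE2 (-1.90, adjusted p = 0.00213), Kdr, the main receptor of VEGF-A (-1.17, adjusted p = 0.00246), and Esam, an adhesion molecule of endothelial junctions (-1.45, adjusted p = 0.00204), fell as well. Lyve1, a hyaluronan receptor of lymphatic vessels and of some tissue macrophages, had 6.13, 8.36, 6.62, 1.97 and 5.22 CPM in control tumors and between 1.00 and 1.13 CPM in INDO tumors (log2 fold change -2.40 ± 0.33 (SE), adjusted p = 0.000377).

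Factors that act on vessels moved in both directions. Vegfa, the principal vessel growth factor and a gene induced by low oxygen, rose from 99.7, 81.2, 91.4, 74.2 and 81.3 CPM in control tumors to 132, 103, 136, 136 and 124 CPM in INDO tumors, all above the controls (log2 fold change 0.56 ± 0.13 (SE), adjusted p = 0.008), although it did not pass when all 94 tumors were fitted together (adjusted p = 0.082). Its coreceptor Nrp2 rose (0.49, adjusted p = 0.0112), a call lost with no filter on low counts (adjusted p = 0.0642), while Nrp1 fell (-0.92, adjusted p = 0.00312). Vegfd, a ligand of lymphatic growth, fell from 3.24 ± 0.965 CPM in control to 0.707 ± 0.207 CPM in INDO tumors (SD, n = 5 each, log2 fold change -2.18 ± 0.39 (SE), adjusted p = 0.00168), and Angptl4, a regulator of lipoprotein lipase and vessel permeability, fell from 35 ± 12.1 CPM in control to 12.1 ± 2.55 CPM in INDO tumors (log2 fold change -1.53 ± 0.26 (SE), adjusted p = 0.00133). Of 20 angiogenic factors and receptors, 2 were higher and 5 lower, and 3 and 4 with housekeeping scaling.

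Fat and red blood cell genes were lower with INDO. Fabp4, the fatty acid carrier of adipocytes and of small-vessel endothelium, had 27.2, 31.8, 23.4, 20.1 and 24.2 CPM in control tumors and 5.18, 10.1, 3.49, 9.96 and 5.75 CPM in INDO tumors, without overlap (log2 fold change -1.88 ± 0.36 (SE), adjusted p = 0.00219). Of 14 tested adipocyte genes 6 were lower and none higher, or 2 without INDO tumor 1, 3 without INDO tumor 3 or 5 or control tumor 5, and 3 with housekeeping scaling. Cidec, a protein of lipid droplets, was the other member called each time (-2.28, adjusted p = 0.0181 as log2 fold change). The adult beta globin Hbb-bs had 60.2, 38.4, 37.4, 102 and 52.6 CPM in control tumors and 13.99, 7.77, 21.7, 18.7 and 11.5 CPM in INDO tumors (log2 fold change -1.98 ± 0.42 (SE), adjusted p = 0.00405). Hbb-bt (-2.08, adjusted p = 0.00302) and the alpha globin Hba-a1 (-1.72, adjusted p = 0.0076) fell too. Reads may be split between Hbb-bt and its near copy Hbb-bs, and between Hba-a1 and its near copy Hba-a2. In all, 5 of 9 tested red cell genes were lower, or 3 without control tumor 4 and 3 in the fit of all 94 tumors, in which Hba-a1 did not pass (adjusted p = 0.0506).

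The endothelial, fibroblast, fat and red cell lists all moved down in the same tumors, and they describe host tissue that surrounds or runs through a tumor. The lists of skeletal muscle and of skin, which are host tissue as well, had no called member of 20 and of 17 tested, with median log2 fold changes of 0.52 and 1.35. Whether the amount of tissue taken along with each tumor had a part in the lower lists was not tested. Markers of the tumor epithelium were called in neither direction (0 of 20, median log2 fold change -0.02), although 4 of 20 were called lower when control tumor 1 was left out.

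**Figure D4:**
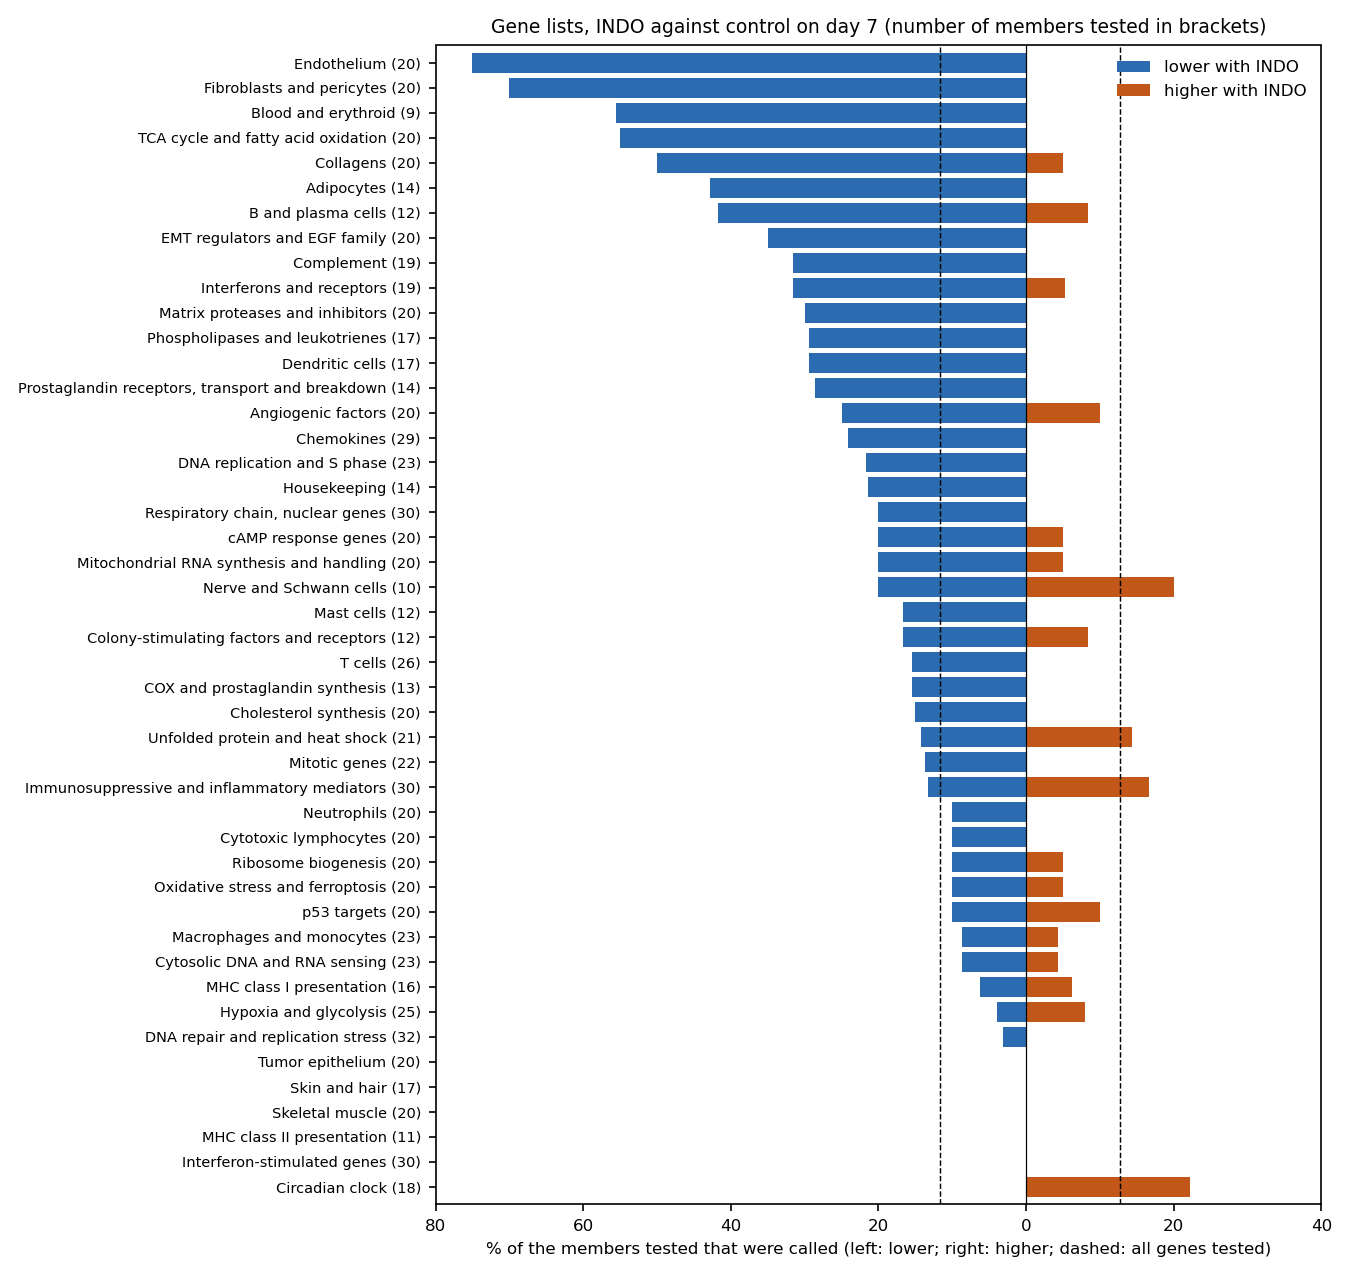
Percent of the tested members of each gene list (number in brackets) that were called lower (bars to the left) or higher (bars to the right) with INDO on day 7; dashed lines mark the percent over all genes tested, 11.7 lower and 12.7 higher. Endothelium (15 of 20) and fibroblasts and pericytes (14 of 20) reach far to the left, and 4 of 18 circadian clock genes lie to the right.

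Among chemokines, Cxcl12, the chemokine of fibroblasts and vessels that holds CXCR4-bearing cells in tissue, had 99.6, 50.1, 92.3, 23.2 and 87.2 CPM in control tumors and 5.77, 9.62, 3.49, 27.01 and 13.4 CPM in INDO tumors (log2 fold change -2.56 ± 0.46 (SE), adjusted p = 0.00157). Control tumor 4 was low and INDO tumor 4 high, so the groups overlapped by that pair. Ccl11, the eosinophil attractant eotaxin (-2.24, adjusted p = 0.00733), Ccl22, which draws regulatory T cells (-1.42, adjusted p = 0.00816), and Ccl7, which draws monocytes (-0.82, adjusted p = 0.0149), fell as log2 fold changes and were called in every fit that left out a tumor. The neutrophil attractants Cxcl1 (-0.03, adjusted p = 0.954) and Cxcl2 (0.05, adjusted p = 0.966) and the monocyte attractant Ccl2 (-0.34, adjusted p = 0.395) did not pass. In all 7 of 29 tested chemokines were lower and none was higher, with 4 lower without INDO tumor 1, 3 or 5 or control tumor 3 or 5 and 4 with housekeeping scaling. Among all genes tested 11.7% were lower with all 20 tumors and TMM.

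Of 30 mediators that suppress or drive inflammation, 5 were higher (Nos2, Vegfa, Tgfb1, Lag3 and Tigit) and 4 were lower, or 8 and 3 with housekeeping scaling. The higher count was 1 without INDO tumor 3 or 4, 2 without control tumor 2 or 4 and 3 without INDO tumor 1 or control tumor 5, and 1 with no filter on low counts or with all 94 tumors in the fit. Il11, a cytokine of the IL-6 family, had 5.50, 4.95, 5.29, 3.10 and 5.88 CPM in control tumors and 2.38, 2.60, 2.19, 2.73 and 2.85 CPM in INDO tumors, lower in each INDO tumor than in each control (log2 fold change -0.95 ± 0.22 (SE), adjusted p = 0.00711). Entpd1, the ectoenzyme CD39 that starts the conversion of ATP to adenosine, fell from 57.1 ± 6.74 CPM in control to 35.99 ± 4.42 CPM in INDO tumors (SD, n = 5 each, log2 fold change -0.67 ± 0.14 (SE), adjusted p = 0.00375) but did not pass with housekeeping scaling (adjusted p = 0.0605). The checkpoint receptor Ctla4 (-1.55, adjusted p = 0.00857) and its ligand Cd86 (-0.63, adjusted p = 0.011) fell. Arginase Arg1 had 301, 249.5, 285, 265 and 242 CPM in control tumors and 309.5, 160.0, 630.2, 501 and 509 CPM in INDO tumors (log2 fold change 0.65 ± 0.33 (SE), adjusted p = 0.148), and did not pass, with INDO tumor 2 below all controls and the other 4 above them. The PD-L1 gene Cd274 had 61.9 ± 9.85 CPM in control and 91.2 ± 17.6 CPM in INDO tumors (log2 fold change 0.56 ± 0.23 (SE), adjusted p = 0.0849) and passed with housekeeping scaling (adjusted p = 0.0398) and in the fit of the 10 compared tumors alone (0.0207).

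The cytokines Il6 (-0.73, adjusted p = 0.264), Il1b (-0.49, adjusted p = 0.434), Tnf (-0.35, adjusted p = 0.313) and Ifng (-0.06, adjusted p = 0.936) and the growth factors Csf2 (0.61, adjusted p = 0.086) and Csf3 (0.22, adjusted p = 0.652) did not pass, and Csf2 passed with housekeeping scaling (adjusted p = 0.0269). The inducible nitric oxide synthase Nos2 had 92.8, 45.6, 123, 80.7 and 109 CPM in control tumors and 150.5, 133, 192, 174 and 146 CPM in INDO tumors, without overlap (log2 fold change 0.82 ± 0.26 (SE), adjusted p = 0.0314), a call lost without INDO tumor 1, 3 or 4 or control tumor 2 or 4, at adjusted p of 0.0517 to 0.0742, and with no filter on low counts (0.064) or all 94 tumors in the fit (0.352). The tryptophan enzyme Ido1 did not pass (0.57, adjusted p = 0.427), while its neighbor and relative Ido2 (chr8:24531892-24576333, minus strand) rose from 1.11, 1.54, 2.08, 1.45 and 2.28 CPM in control tumors to 4.76, 5.85, 7.74, 7.48 and 5.72 CPM in INDO tumors, without overlap (log2 fold change 1.90 ± 0.38 (SE), adjusted p = 0.00318). Csf2ra, the alpha chain of the GM-CSF receptor, rose from 13.4 ± 3.37 CPM in control to 28.6 ± 9.14 CPM in INDO tumors (SD, n = 5 each, log2 fold change 1.09 ± 0.22 (SE), adjusted p = 0.00337), and Kit, the stem cell factor receptor of mast cells and progenitors, fell from 10.1 ± 1.44 CPM in control to 4.88 ± 0.440 CPM in INDO tumors (log2 fold change -1.05 ± 0.19 (SE), adjusted p = 0.00169), both without overlap. INDO tumor 3, at 4.11 CPM of Kit, lay apart from the other INDO tumors.

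The bases just before the start of the Il11 and Mmp3 genes hold the AP-1 site TGACTCA, to which the Fos and Jun proteins bind. They are shown because both genes fell and both carry that site. Promoters are those of RefSeq on GRCm38.p6, from 250 bases before to 50 bases after the start, read 5′ to 3′ on the gene's strand, with the motif in capitals (TGAGTCA, its reverse complement, in both). Il11 lies on the minus strand at chr7:4778092-4778391 with the motif starting at -98 from the start of the gene, and Mmp3 on the plus strand at chr9:7445572-7445871 with the motif starting at -46.
Il11: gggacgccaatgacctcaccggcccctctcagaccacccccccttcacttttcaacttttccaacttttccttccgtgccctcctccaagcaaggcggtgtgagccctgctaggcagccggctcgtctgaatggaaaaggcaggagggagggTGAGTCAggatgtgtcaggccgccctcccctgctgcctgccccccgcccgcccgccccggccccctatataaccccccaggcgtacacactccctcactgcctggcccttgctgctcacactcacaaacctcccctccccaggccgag
Mmp3: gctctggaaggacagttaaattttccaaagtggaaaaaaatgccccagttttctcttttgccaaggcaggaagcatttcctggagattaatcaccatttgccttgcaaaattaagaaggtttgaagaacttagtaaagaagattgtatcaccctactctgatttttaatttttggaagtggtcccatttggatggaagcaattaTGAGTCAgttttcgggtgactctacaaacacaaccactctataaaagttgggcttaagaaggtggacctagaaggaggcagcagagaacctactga

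Such a match describes the letters only. TGACTCA on either strand was found in 5.39% of 965 promoters of higher genes, 5.33% of 1931 promoters of lower genes and 5.34% of 13426 promoters of all genes tested that had an entry. The cAMP response element TGACGTCA was found in 2.59, 2.90 and 3.15% of the same promoters.

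Of 30 interferon-stimulated genes none was called in either direction in the fit of the 20 tumors of day 7, while 4 were higher with housekeeping scaling, 4 in the fit of the 10 compared tumors alone and 1 without INDO tumor 1, and none of 11 MHC class II genes was called with either scaling. Among 19 tested interferons, receptors and signal proteins, 6 were lower and 1 higher, against 1 and 1 with housekeeping scaling. Ifnar1, the signaling chain of the type I interferon receptor, had 85.8, 82.5, 83.9, 77.1 and 86 CPM in control tumors and 63.8, 53.7, 61.1, 64.2 and 69.9 CPM in INDO tumors, without overlap, but did not pass with housekeeping scaling (log2 fold change -0.41 ± 0.08 (SE), adjusted p = 0.00315, housekeeping adjusted p = 0.121). Ifngr1, the ligand-binding chain for interferon gamma, fell with both scalings (-0.60, adjusted p = 0.00338, housekeeping adjusted p = 0.0173). Ifnk, an interferon of epithelial cells, rose from 0.0191, 0.418, 0.324, 0.380 and 0.429 CPM in control tumors to 1.07, 0.858, 1.55, 1.02 and 0.825 CPM in INDO tumors, a low level in both groups (log2 fold change 1.74 ± 0.42 (SE), adjusted p = 0.00788), with control tumor 1 apart at 0.0191 CPM.

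B cell genes were called lower more often than higher. Of 12 tested genes of B and plasma cells 5 were lower and 1 was higher, with the same counts under housekeeping scaling, 4 or 5 lower in every fit that left out a tumor and 2 lower and none higher in the fit of all 94 tumors. Ighm, the heavy chain of IgM, had 7.28, 4.91, 4.73, 5.37 and 5.72 CPM in control tumors and 1.91, 2.001, 0.518, 2.39 and 2.05 CPM in INDO tumors, without overlap (log2 fold change -1.66 ± 0.35 (SE), adjusted p = 0.00384), and Cd79b, a signaling chain of the B cell receptor, fell as well (-1.71, adjusted p = 0.00974). INDO tumor 3 lay apart from the other INDO tumors for Ighm. The member that rose was Fcer2a, the low-affinity IgE receptor CD23 (1.41, adjusted p = 0.0158). Cd79b and Fcer2a did not pass in the fit of all 94 tumors (adjusted p = 0.117 and 0.13). Of 26 T cell genes 21 were below 0, with a median log2 fold change of -0.46. Only 4 of them were called lower and none higher, beside 11.7 and 12.7% of all genes tested. The lower count was 1 without INDO tumor 1, 2 without INDO tumor 3 or 5 or control tumor 3 or 5, 1 with housekeeping scaling and 8 with DESeq2. The T cell genes summed to 136 to 281 CPM in control and 78.5 to 138 in INDO tumors.

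H2-Q7, a nonclassical MHC class I gene with near-identical neighbors, rose from 58.5 ± 8.99 CPM in control to 99.7 ± 9.70 CPM in INDO tumors (SD, n = 5 each, log2 fold change 0.77 ± 0.21 (SE), adjusted p = 0.0159), but did not pass when all 94 tumors were fitted together (adjusted p = 0.131). The formyl peptide receptor Fpr2 of neutrophils and monocytes fell from 11.6, 3.53, 7.20, 3.08 and 6.71 CPM in control tumors to 1.82, 2.91, 1.97, 1.86 and 1.38 CPM in INDO tumors (log2 fold change -1.69 ± 0.31 (SE), adjusted p = 0.00189), and Fpr1 fell with it (-1.31, adjusted p = 0.0142), the 2 called of 20 tested neutrophil genes. That count does not exceed the 11.7% of all genes tested that were lower. Clec10a, a lectin of dendritic cells and macrophages, fell (-1.42, adjusted p = 0.00628), as did Ccr7, the receptor that guides dendritic cells and T cells to lymph nodes (-1.88, adjusted p = 0.00446), and both were called in every fit that left out a tumor. The count of 5 lower among 17 dendritic cell genes was 2 without INDO tumor 1 or 3 or control tumor 5, and 3 without INDO tumor 2 or 5 and with housekeeping scaling. The complement activator properdin, Cfp (-1.09, adjusted p = 0.00299), fell in every fit that left out a tumor, whereas the count of 6 lower among 19 complement genes went down to 2 without INDO tumor 3 or control tumor 2 or 3, to 3 without INDO tumor 1 or 2 or control tumor 5 and to 2 with housekeeping scaling. The counts of 5 and 6 stand beside the same 11.7%, which is the share with all 20 tumors and TMM.

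The number of genes called in growth and stress programs moved with the fit. Beside the counts with all 20 tumors and TMM, 12.7% of all genes tested were called higher and 11.7% lower. Of 22 mitotic genes 3 were lower and none higher, and of 23 replication genes 5 were lower and none higher, and without control tumor 1 these counts were 9 and 12. Without INDO tumor 2, 3 or 4 or control tumor 2, 4 or 5 the replication count was 1, and with housekeeping scaling the counts were 1 and 0. Kif20a, a motor protein of cell division, fell with both scalings, from 68.2 ± 10.1 CPM in control to 46.95 ± 5.96 CPM in INDO tumors (SD, n = 5 each, log2 fold change -0.54 ± 0.14 (SE), adjusted p = 0.0106). Of 25 genes of hypoxia and glycolysis, Hk2, the hexokinase that commits glucose to glycolysis, rose from 199, 224, 247, 207 and 220.5 CPM in control tumors to 287, 308, 343, 324 and 275 CPM in INDO tumors, without overlap (log2 fold change 0.49 ± 0.11 (SE), adjusted p = 0.00739), and Vegfa was the other member called higher, while the median of the list was -0.25. Hk2 did not pass when all 94 tumors were fitted together (adjusted p = 0.084) or with no filter on low counts (0.0569). Of 21 genes of the unfolded protein and heat shock responses 3 were higher and 3 lower, or 3 and 1 with housekeeping scaling. With a tumor left out, 1 to 3 of them were higher and 2 to 5 lower. The heat shock chaperone Hspa1b rose from 57.8 ± 17.4 CPM in control to 129.5 ± 42.1 CPM in INDO tumors (log2 fold change 1.17 ± 0.30 (SE), adjusted p = 0.0112), while Xbp1, the transcription factor of the unfolded protein response and of plasma cells, fell from 123 ± 5.42 CPM in control to 82.2 ± 10.3 CPM in INDO tumors (log2 fold change -0.58 ± 0.10 (SE), adjusted p = 0.00133). Hspa1b did not pass when all 94 tumors were fitted together (adjusted p = 0.0843), and it has a near-identical copy next to it.

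Among genes of adhesion and migration, Cdh2, the N-cadherin of mesenchymal cells, fell from 7.22, 6.81, 3.73, 3.10 and 4.57 CPM in control tumors to 1.76, 1.38, 0.977, 1.74 and 2.02 CPM in INDO tumors, without overlap (log2 fold change -1.69 ± 0.29 (SE), adjusted p = 0.00135). Egfr, the receptor of epidermal growth factor, fell from 50.3 ± 11.7 CPM in control to 24.1 ± 4.95 CPM in INDO tumors (SD, n = 5 each, log2 fold change -1.06 ± 0.27 (SE), adjusted p = 0.0117), but did not pass with housekeeping scaling (adjusted p = 0.0506). In all, 7 of 20 regulators of the epithelial-mesenchymal transition and EGF family genes were lower and none was higher. The count was 3 without INDO tumor 3, 4 without INDO tumor 1 or control tumor 5, and 1 with housekeeping scaling. The count of 7, with all 20 tumors and TMM, stands beside 11.7% of all genes tested called lower. Il1r1, the receptor of IL-1 on stromal cells, fell with both scalings, from 86.2, 71.6, 78.2, 67 and 76.4 CPM in control tumors to 29.9, 36.2, 27.3, 37.4 and 33.9 CPM in INDO tumors (log2 fold change -1.20 ± 0.14 (SE), adjusted p = 0.000168).

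Of 18 circadian clock genes 4 were higher with both scalings, and 2 without INDO tumor 2 or 3 or control tumor 2 or 4. Per2, a core repressor of the clock, had 5.71, 7.30, 7.59, 6.85 and 7.05 CPM in control tumors and 11.4, 9.77, 13.5, 12.2 and 11.3 CPM in INDO tumors (log2 fold change 0.75 ± 0.14 (SE), adjusted p = 0.00221). Bhlhe41, a repressor that binds E-boxes and is itself driven by the clock, had 24.2, 32.98, 30.7, 31.8 and 25.3 CPM in control tumors and 43.2, 48.2, 61.4, 52.2 and 36.8 CPM in INDO tumors (log2 fold change 0.74 ± 0.17 (SE), adjusted p = 0.00579). In both genes every INDO tumor was above every control tumor. The hour at which each tumor was taken is not given in the labels, and its part in these values was not tested. The promoter of Bhlhe41 (RefSeq, GRCm38.p6, minus strand, chr6:145865371-145865670) is shown because it holds an E-box, CACGTG, in capitals, starting at -153 from the start of the gene. The E-box was found in 10.6% of the promoters of higher genes, 10.3% of lower genes and 10.7% of all tested.
Bhlhe41: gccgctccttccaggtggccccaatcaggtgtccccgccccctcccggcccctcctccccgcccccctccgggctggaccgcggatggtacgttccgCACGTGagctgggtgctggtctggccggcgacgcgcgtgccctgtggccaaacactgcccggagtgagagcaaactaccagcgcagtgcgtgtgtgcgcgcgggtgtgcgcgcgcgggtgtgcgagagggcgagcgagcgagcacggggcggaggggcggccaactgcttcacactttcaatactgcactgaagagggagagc

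Among the genes with the smallest p or largest fold were noncoding RNAs. Gm536, a lincRNA at chr16:31617735-31638979, plus strand, had 0.843, 0.438, 0.443, 0.369 and 0.264 CPM in control tumors 1 to 5 and 3.48, 3.82, 6.60, 4.66 and 5.17 CPM in INDO tumors 1 to 5 (10.2-fold higher, log2 fold change 3.35 ± 0.35 (SE), adjusted p = 9.44e-05). Gm33680, a lincRNA at chr12:45466273-45546677, plus strand, rose in the same way (log2 fold change 2.84 ± 0.32 (SE), adjusted p = 0.000168). AU020206, a lincRNA at chr7:75769038-75782099, minus strand, had 54.5, 51.5, 56.4, 51.8 and 58.96 CPM in control tumors and 97.03, 86.6, 103, 100.1 and 106 CPM in INDO tumors (log2 fold change 0.85 ± 0.10 (SE), adjusted p = 0.000279). Pvt1, the lincRNA that neighbors Myc, rose from 22.3 ± 4.75 CPM in control to 41.2 ± 3.85 CPM in INDO tumors (SD, n = 5 each, log2 fold change 0.88 ± 0.13 (SE), adjusted p = 0.000549). None of these 4 had overlapping groups.

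Among protein-coding genes, the RNA-binding genes Hnrnpd (0.65, adjusted p = 0.000682) and R3hdm1 (0.67, adjusted p = 0.000769), the deadenylase complex ubiquitin ligase Cnot4 (0.43, adjusted p = 0.000772) and the kinase Sik2, which restrains cAMP-driven transcription (0.83, adjusted p = 0.000991), rose as log2 fold changes. Plekhs1, a gene of little known function, had 2.03, 1.47, 1.43, 1.12 and 1.64 CPM in control tumors and 5.80, 2.99, 10.1, 9.56 and 8.15 CPM in INDO tumors (log2 fold change 2.25 ± 0.35 (SE), adjusted p = 0.000804). Each of these 5 genes was higher in every INDO tumor than in every control tumor. Opposite them, the tubulin Tuba1a fell from 255, 303, 203, 308 and 264 to 126, 84.5, 75.8, 100.2 and 127 CPM (log2 fold change -1.38 ± 0.18 (SE), adjusted p = 0.000327), and Fstl1, a secreted protein of mesenchymal cells, fell from 429.5 ± 145 CPM in control to 114 ± 26.1 CPM in INDO tumors (log2 fold change -1.91 ± 0.25 (SE), adjusted p = 0.000338). Cav1, the coat protein of caveolae in endothelium, fat and fibroblasts, fell as well (log2 fold change -1.39 ± 0.18 (SE), adjusted p = 0.000327).

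The same drug was given on day 7 to irradiated tumors, none of which enters the comparison of INDO with control. There, 6 Gy + INDO differed from 6 Gy alone in 2206 genes higher (10.1%) and 2035 lower (9.30%). Of the genes higher with INDO alone 928 were also higher here (33.5% of the former, 42.1% of the latter), and of the genes lower with INDO alone 985 were also lower (38.5 and 48.4%), while 1 gene higher with INDO alone was lower here and 20 genes lower with INDO alone were higher. These counts rested on few tumors: they fell to 332 and 273 without 6 Gy tumor 1, to 903 and 964 without 6 Gy tumor 2, to 999 and 1115 without 6 Gy + INDO tumor 3 and to 650 and 499 without 6 Gy + INDO tumor 5, and the lower count rose to 3163 without 6 Gy + INDO tumor 2. Without 6 Gy + INDO tumors 2, 3 and 5 the counts were 58 and 15. These tumors held 334, 1593 and 747 CPM of olfactory and vomeronasal receptor reads. INDO tumors held 63.3 to 84.8 CPM of such reads, control tumors 2 to 5 held 40.7 to 45.05 and control tumor 1 held 73.1. The part of such reads in the comparison of INDO with control was not tested.

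Few stromal and vascular genes were called in the irradiated tumors. Of the 20 endothelial and 20 fibroblast and pericyte markers, 1 and 0 were lower with 6 Gy + INDO than with 6 Gy, and no collagen was. Pi16 averaged 48.98 CPM in control tumors, 4.04 with 6 Gy and 4.46 with 6 Gy + INDO, and Pecam1 99.6, 39.4 and 35.5, beside 7.21 and 42.96 with INDO alone. Tested as such, the change with INDO differed between irradiated and unirradiated tumors in 27 genes (0.123% of those tested, with 2595 at an unadjusted p under 0.05). The difference was upward in 26 of them, and since it holds the change with INDO alone with a minus sign, it is not independent of that change. Pi16 led them, with a difference of 2.90 ± 0.34 (log2, SE, adjusted p = 0.00126), followed by Thbs3, a secreted thrombospondin (1.57 ± 0.22, adjusted p = 0.00682). The number of such genes moved widely: it was 3 to 14 in 15 of the 20 fits that left out 1 tumor, 39 and 132 without 6 Gy + INDO tumors 1 and 2, 325 without 6 Gy + INDO tumor 4, 48 without INDO tumor 4 and 204 without control tumor 4. It was 6 without the 3 tumors with receptor reads and 3 with housekeeping scaling. Ido2 rose with INDO in irradiated tumors too (log2 fold change 2.17, adjusted p = 0.0133).

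**Figure D5:**
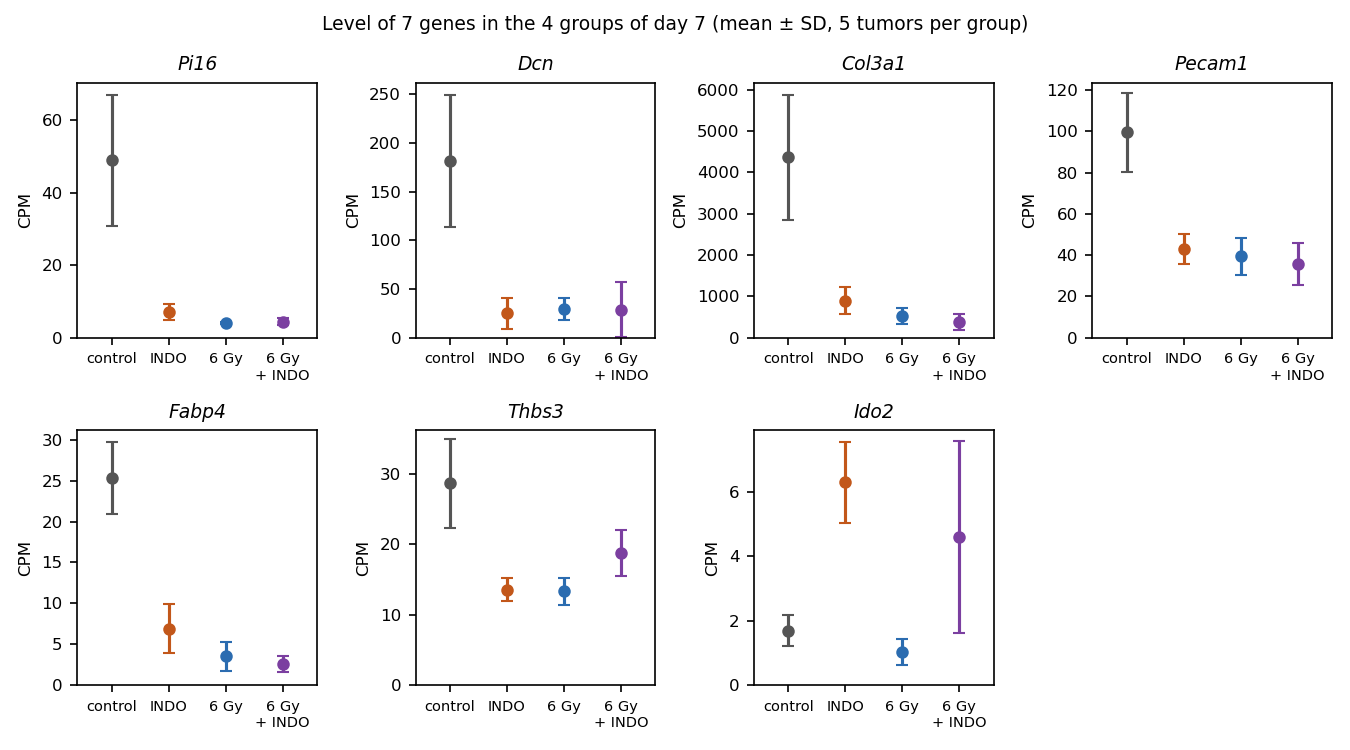
Level (y axis, CPM) of 7 genes in the 4 groups of day 7 (control, INDO, 6 Gy and 6 Gy + INDO), as mean ± SD of 5 tumors. Pi16, Dcn, Col3a1, Pecam1 and Fabp4 have their highest mean in the control group, Thbs3 is lowest with INDO or 6 Gy alone, and Ido2 is high in both groups that received INDO.

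INDO was also compared with control in other tumors, taken on days 1, 3, 15 and 23. In a fit of all 94 tumors, 1835 genes (6.24% of 29395 tested) were called on day 1, 1978 (6.73%) on day 3, 7 (0.0238%) on day 15 and 72 (0.245%) on day 23, in both directions together. Pi16 had log2 fold changes of -2.77 on day 1 and -2.61 on day 3 (adjusted p = 5.78e-07 and 7.73e-06) and of -0.96 and 0.10 on days 15 and 23 (adjusted p = 0.585 and 0.952). Pecam1 had -1.25 and -0.69 on days 1 and 3 (adjusted p = 3.61e-05 and 0.0292) and 0.12 and -0.62 later (adjusted p = 0.954 and 0.176). The fall of both genes was thus present in the earlier days and was not called in the later ones, which had 3 control tumors each.

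The median share of structural RNA in the control tumors of days 1, 3, 7, 15 and 23 was 6.74, 9.29, 7.96, 8.44 and 10.2%, in that order, and in the INDO tumors it was 17.5, 13.7, 20.7, 8.36 and 10.3%. For mitochondrial RNA the control medians were 3.58, 3.05, 3.33, 6.20 and 4.54% and the INDO medians 5.76, 4.28, 8.32, 4.64 and 4.72%. Without nuclear ribosomal RNA the structural medians were 6.18, 9.19, 7.87, 7.91 and 10.04% in control and 15.9, 11.95, 15.5, 7.54 and 8.55% in INDO tumors. On days 1, 3 and 7 the INDO medians of both classes were the higher ones, and on day 15 the lower ones, while on day 23 the structural INDO median was the lower one only without nuclear ribosomal RNA. Shares on the other days were given as medians only and were not tested. In a test of day 7 against the mean of the other days, 1 gene was called (0.00340% of 29395 tested, with 2203 at an unadjusted p under 0.05). It was Myzap, a protein of cell junctions in heart and endothelium, which fell by 1.05 ± 0.20 more on day 7 on the log2 scale (SE, adjusted p = 0.0318). The call was lost without INDO tumor 1 or 3 or control tumor 1, 2 or 5 (the largest adjusted p was 0.212). It was also lost with relative log expression (RLE) size factors (0.0635), with no filter on low counts (0.051) and with housekeeping scaling (0.407).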

How the data were processed

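Tumor RNA was extracted from 94 4T1 tumors and libraries were made with a stranded total RNA kit. Per the labels, the authors used Cutadapt, STAR and Partek 11.0.24.0328 with the mouse build mm10. The gene annotation, the counter and whether counting used the strand were not stated in the sources used. The authors deposited expected counts (estimated counts per gene symbol, not scaled), which were rounded to whole numbers here. The 10 tumors compared held 34481779 to 96476247 counts each.

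Genes with enough counts (filterByExpr) were scaled by TMM and tested with edgeR 4.0.16 (glmQLFit and glmQLFTest, R 4.3.3) in 1 fit of the 20 tumors of day 7, with Benjamini-Hochberg adjustment over all 21875 genes tested and a threshold of 0.05. SE was derived from the log2 fold change and F. Shares of counts were compared by two-sided exact permutation tests. Gene classes and positions came from GENCODE vM21 (GRCm38), matched for 47182 of 49080 genes. Labels name separate tumors, and p-values measure the spread between them.

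Genes named were a fixed set (cyclooxygenases, prostaglandin E2 genes, cytokines, mitochondrial genes), from each list at most 6 called members, by smallest p, the 20 called genes with the largest fold in each direction without overlap (mean log2 CPM of at least 1), the 10 with the smallest p in each direction (at least 4), and the 8 with the smallest p in each direction in other comparisons. Some genes that this rule names are not reported here. The members and lists were chosen with earlier results of these data known. Alternatives were other scalings (RLE size factors in edgeR, 14 housekeeping genes), no filter, DESeq2 1.42.0, other sets of tumors, removal of mitochondrial and structural RNA genes, a replicate block and leaving out each tumor.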

Additional observations from a re-analysis of the deposited data

Results flagged for a closer look

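Single tumors stood apart from the other 4 of their group, by Dixon's test at the 95% level, in 20 of 298 groups tested, where chance flags about 1 in 20. Among INDO tumors, tumor 2 was high for CT010467.1 (168646 CPM), Mmp3 (406 CPM), Cidec (0.572 CPM) and the share of olfactory and vomeronasal receptor reads (0.00848%), and tumor 3 was low for Kit (4.11 CPM) and Ighm (0.518 CPM). Control tumor 1 was high for Ptgfr (7.77 CPM), Tnf (5.44 CPM) and the receptor share (0.00731%) and low for Ifnk (0.0191 CPM) and for its total count (47525897 counts). Control tumor 2 was high for Ptgs1 (53.3 CPM) and Ogn (36.9 CPM) and low for Csf3 (24.9 CPM), and control tumor 3 was high for Adamts5 (45.9 CPM). Control tumor 4 was high for mt-Nd2 (243 CPM), Ido1 (9.64 CPM) and Hbb-bt (9.26 CPM) and low for Col7a1 (315 CPM) and Angptl4 (14.5 CPM).

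The change with INDO differed between irradiated and unirradiated tumors in 27 genes by the edgeR test of that difference. Those with the smallest p and a sufficient level were Pi16 (2.90 on the log2 scale), Thbs3 (1.57), Lyve1 (2.65), Abi3bp (3.01), Galnt16 (3.44), Pde3a (1.21), Pde5a (1.69), Vegfd (2.85), Lbp (2.94) and Col28a1 (4.26). The last 8 of these lost the call in most fits that left out a tumor. For Myzap, the change with INDO on day 7 was below the mean of the other days by the test of that difference (-1.05 on the log2 scale).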

How the results depend on the processing

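The mitochondrial share stayed higher with INDO in each fit that left out a tumor (difference of 3.79 to 5.92 percentage points) and so did the structural share (10.2 to 13.3, and 6.93 without the nuclear rRNA genes). Of 110 called genes named in the report, 92 kept the call and direction under every alternative run and 105 in every fit that left out a tumor. Genes higher with INDO numbered 2769, from 1673 to 3981 with a tumor left out and 1455 with no filter on low counts. Genes lower numbered 2557, from 1547 to 3048 with a tumor left out, 911 with housekeeping scaling and 842 with the study's limits of unadjusted p and fold. DESeq2 gave 3191 and 3381.

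For 6 Gy + INDO against 6 Gy, genes higher ranged from 332 to 2608 and genes lower from 273 to 3163 with a tumor left out. Housekeeping scaling gave 3377 and 526, no filter gave 5156 higher, and leaving out the tumors with receptor reads, chosen after seeing the data, gave 58 and 15. That last fit has fewer samples and also lacks those libraries, which cannot be told apart. Genes whose change differed with 6 Gy ranged from 3 to 325 with a tumor left out and were 3 with housekeeping scaling, 43 without mitochondrial and structural RNA genes and 6 without the tumors with receptor reads. Genes whose change differed from the other days ranged from 0 to 4, with 0 under RLE, housekeeping scaling or no filter and 2 without mitochondrial and structural RNA genes or the tumors with receptor reads. The causes were not tested.

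Counts of lower genes within lists also moved by over 1.5 times in fits not given beside them: with no filter on low counts (TCA cycle and fatty acid oxidation 7, replication 2, mitochondrial RNA handling 2), with the 10 compared tumors alone (TCA cycle and fatty acid oxidation 7, replication 3, mitotic 5, cAMP response 2), with all 94 tumors (complement 2, mast cells 4, replication 3) and with DESeq2 (mitotic 6, tumor epithelium 3). Circadian genes called higher were 2 with all 94 tumors in the fit.

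Uncalled genes near 0 changed sign. With a tumor left out, the log2 fold change of Cxcl1 ran from -0.27 to 0.10, of Cxcl2 from -0.22 to 0.28 and of Ifng from -0.20 to 0.09. With housekeeping scaling Cxcl1 was 0.21 and Ifng 0.14, and Cxcl2 was -0.02 with all 94 tumors in the fit and with no filter.

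With the replicate number as a block, genes higher and lower with INDO were 2019 and 1752, those of 6 Gy + INDO 976 and 1072, and the difference between them 4. The numbers did not pair the tumors: correlations of same-numbered INDO and control tumors were -0.0863, 0.1137, 0.0534, 0.1185 and -0.045, and no INDO or control tumor correlated best with its own number in the other group.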
